A study of Homo sapiens with 11 samples.

Results

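Interferon-stimulated genes (ISGs) were followed through a hypoxic time course in RWPE1 cells, an immortalized prostate epithelial line that forms no tumors. The set held 37 ISG symbols chosen by name. All 37 were found among the 60676 genes of the count table, and all 37 were among the 19981 genes with enough reads to test. The rule is a list of names and sets no threshold on a measured value.

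Control cells (0 h) were kept in normoxia without treatment, and the other cells were shifted to 1% O2 for 6, 12 or 24 h. The groups held 3, 3, 3 and 2 libraries, and a further library of 24 h was not analysed here. Medium of the hypoxic cells also contained 10 mM HEPES, so that oxygen and buffer cannot be told apart. All groups are 1 cell line with no added interferon, and nothing in the labels says whether replicates were separate cultures, so p-values measure the spread between these libraries.

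ISGs encode proteins that restrict viruses at entry, translation, replication or release, together with the sensors and transcription factors that turn the same genes on. Interferon binding to its receptor activates the kinases JAK1 and TYK2, which lead to assembly of the complex ISGF3, with STAT2 and IRF9 among its subunits. ISGF3 binds the interferon-stimulated response element (ISRE) in ISG promoters. Epithelial cells often hold a low level of ISG transcripts without infection, and this basal level is what the normoxic libraries measure.

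Read totals ran from 27496009 to 49488345 per library, and levels are given as CPM, counts scaled to a common library size with TMM factors. The library of 24 h replicate 2 stood apart: it had a TMM factor of 0.539, mitochondrial reads at 0.369% (the other hypoxic libraries 1.74% to 6.78%, normoxia 10.2% to 10.3%) and 33.7% of its reads in its 50 most abundant genes (20% to 25.6% elsewhere). KRT5 and KRT14, keratins of basal epithelium, were abundant in every library, whereas KLK3 had 0 counts. Epithelial markers moved with hypoxia too: of 6 basal markers KRT14 and ITGA6 were higher and TP63 and KRT15 lower at all 3 times, and of 4 shared or luminal markers KRT8, KRT18 and EPCAM were higher at all 3 times and CDH1 lower at 24 h. Their part in the ISG results was not tested. The hypoxia markers EGLN3, CA9, SLC2A3 and SLC2A1 were higher at each time. In bulk RNA, fewer cells of a type and less RNA per cell cannot be told apart.

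Promoter sequence was available for 29 members (39 windows of 300 bases, 250 before to 50 after an annotated start; RefSeq, GRCh38.p14). The core of the ISRE was searched on both strands as GAAA, any 2 bases and GAAA, and as GAAANGAAA with the repeats 1 base closer. These motifs may overlap each other. Stretches of 180 bases (170 before to 10 after the start, 5′ to 3′ on the strand of the gene) are shown for members of each direction of change, with every core on either strand in capitals. Where a gene had more than 1 window, the stretch with the most bases in cores was taken. The other window of XAF1 held 0 cores. Every gene shown holds a core, which is not so for every member. The first 5 belong to genes that were lower at all times, and they are followed by RSAD2 without a call and by BST2, IFITM3 and ISG15, which were higher. The RSAD2 stretch overlaps a window of CMPK2, a gene that was lower at all times. Of the RSAD2 cores shown, 2 are also the cores of that CMPK2 window. A further start of RSAD2, with 1 core in its window, is not shown.
IFIT3, chr10:89332359-89332538, plus strand: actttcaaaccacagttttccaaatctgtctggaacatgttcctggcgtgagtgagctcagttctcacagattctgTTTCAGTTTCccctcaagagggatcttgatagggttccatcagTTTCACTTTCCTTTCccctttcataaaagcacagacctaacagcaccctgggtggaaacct
OAS3, chr12:112938304-112938483, plus strand: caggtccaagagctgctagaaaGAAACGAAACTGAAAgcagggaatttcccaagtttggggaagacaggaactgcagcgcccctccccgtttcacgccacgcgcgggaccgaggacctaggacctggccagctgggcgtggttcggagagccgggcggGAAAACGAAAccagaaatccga
IFIH1, chr2:162318675-162318854, minus strand: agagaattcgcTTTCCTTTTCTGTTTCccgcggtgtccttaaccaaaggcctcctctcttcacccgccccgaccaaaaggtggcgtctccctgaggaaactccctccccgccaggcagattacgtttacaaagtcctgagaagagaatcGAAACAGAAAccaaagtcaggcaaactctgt
IFI44L, chr1:78620278-78620457, plus strand: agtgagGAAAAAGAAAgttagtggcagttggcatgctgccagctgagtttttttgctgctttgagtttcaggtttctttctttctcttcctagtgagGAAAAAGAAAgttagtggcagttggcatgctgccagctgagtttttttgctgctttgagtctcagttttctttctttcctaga
XAF1, chr17:6755876-6756055, plus strand: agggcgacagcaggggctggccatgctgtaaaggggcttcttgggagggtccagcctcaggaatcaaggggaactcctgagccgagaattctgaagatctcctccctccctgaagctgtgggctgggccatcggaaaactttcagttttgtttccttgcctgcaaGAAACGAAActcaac
RSAD2, chr2:6865715-6865894, plus strand: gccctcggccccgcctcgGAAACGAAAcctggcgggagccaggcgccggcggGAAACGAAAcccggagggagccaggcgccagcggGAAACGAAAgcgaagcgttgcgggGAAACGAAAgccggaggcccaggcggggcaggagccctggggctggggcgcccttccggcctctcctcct
BST2, chr19:17405621-17405800, minus strand: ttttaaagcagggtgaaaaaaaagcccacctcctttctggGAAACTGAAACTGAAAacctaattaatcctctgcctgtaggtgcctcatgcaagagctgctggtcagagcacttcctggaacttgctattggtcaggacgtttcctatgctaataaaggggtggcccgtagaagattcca
IFITM3, chr11:320851-321030, minus strand: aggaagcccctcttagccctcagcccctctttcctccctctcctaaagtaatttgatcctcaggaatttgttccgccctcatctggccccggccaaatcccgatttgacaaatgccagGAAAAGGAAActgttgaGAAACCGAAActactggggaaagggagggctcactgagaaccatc
ISG15, chr1:1013327-1013506, plus strand: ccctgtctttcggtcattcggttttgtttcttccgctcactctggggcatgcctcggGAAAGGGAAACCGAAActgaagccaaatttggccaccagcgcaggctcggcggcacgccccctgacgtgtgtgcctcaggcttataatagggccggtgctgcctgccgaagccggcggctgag

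At least 1 of the cores lay in the windows of 24 of the 29 members (82.8%), against 7.83% of the 27305 genes with a window. The form with 2 bases between the repeats was found in 20 members (4.38% of all genes) and GAAANGAAA in 11 (3.87%). Members of every response held them: 7 of 10 that were lower at all 3 times, 3 of 3 that were higher at all 3 times, 1 of 3 that were lower at 1 or 2 times, 3 of 3 that were higher at 24 h alone, and 10 of 10 without a call. The windows of STAT2, SAMD9L, IRF9, IRF1 and HERC6 held neither. CMPK2, lower at all 3 times, and RSAD2, without a call, share 2 cores, which are counted for both. ACGTG or GCGTG, the core of the hypoxia response element, was found in 11 members (37.9%) against 52.4% of all genes, and TTCNNNGAA, the STAT dimer motif, in 9 (31.0%) against 9.38%. In IFI27, EPSTI1, IFI35, IFITM1 and MX1 the TTCNNNGAA match shares bases with a GAAA core counted above. So does the BST2 match at -136, while the BST2 match at -58 and those of OAS1, IRF1 and IRF9 lie apart from such cores. The shares of these motifs are therefore not independent. A match is a run of letters and not a measured binding site.

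**Figure D1:**
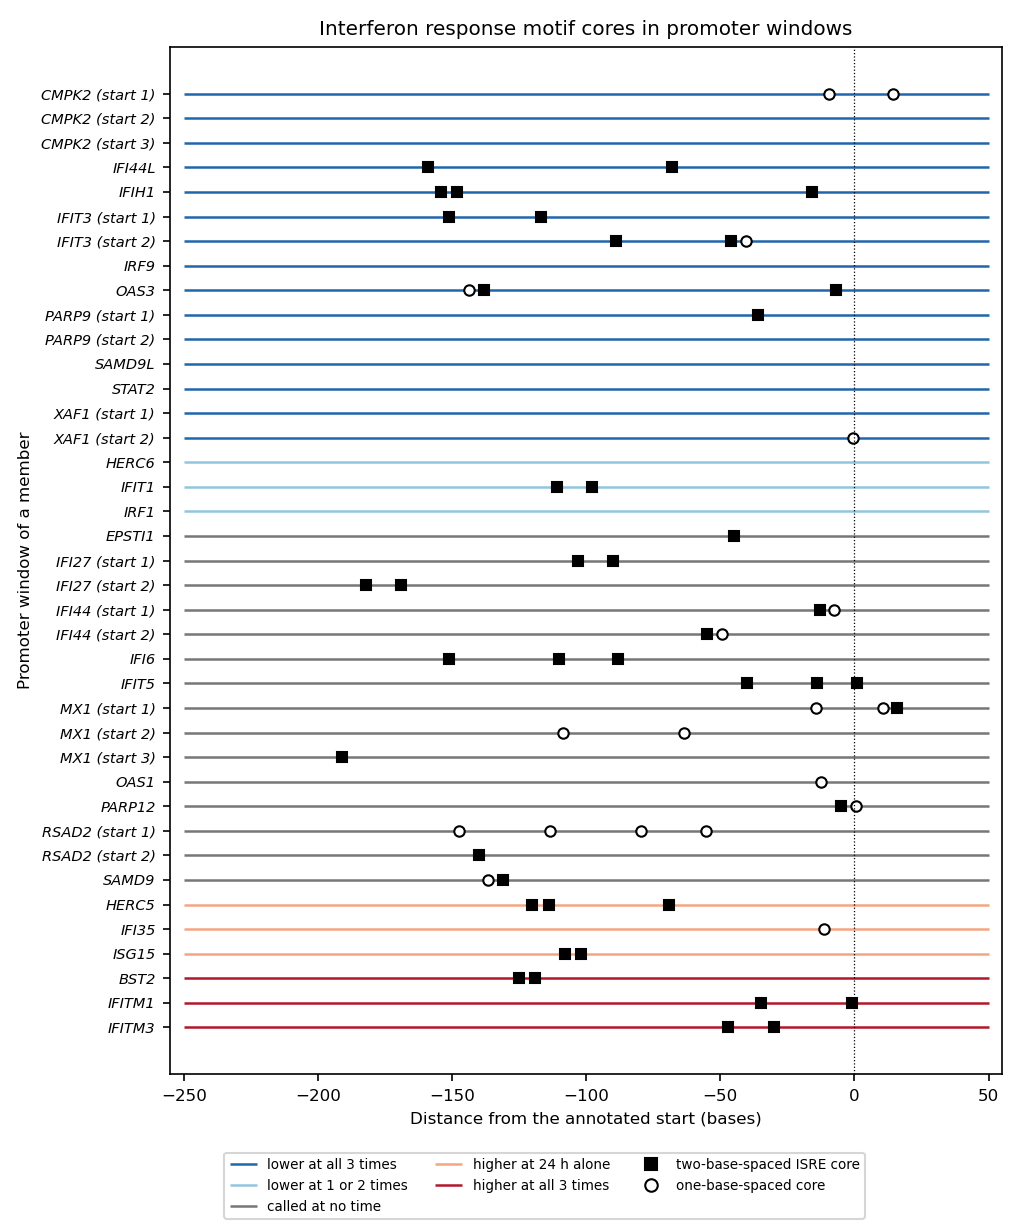
Positions of the ISRE core (filled squares) and its version with repeats 1 base closer (open circles) along the 39 promoter windows of 29 members, as distance in bases from the annotated start. Line colour gives the response of the gene, and cores lie in windows of genes that were lower, higher or not called.

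More ISGs were called lower than higher at each time with TMM scaling. A member is called where the edgeR quasi-likelihood test, adjusted over all tested genes by Benjamini-Hochberg, gives p under 0.05. At 6 h 16 members were lower (43.2%, all genes 27.7%) and 4 higher (10.8%, all genes 25.1%). At 12 h 16 were lower (all genes 27.1%) and 4 higher (all genes 24.2%). At 24 h 17 were lower (45.9%, all genes 31.3%) and 7 higher (18.9%, all genes 29.9%). At 24 h this order turned with an offset for length and GC content (12 lower, 14 higher), and with library size alone 21 members were lower (56.8%) against 56.6% of all genes. The median log2 fold change of the members was -0.53, -0.61 and -0.80, and over every gene tested it was -0.0021, -0.033 and -0.065.

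The same 14 members were lower at each of the 3 times, a pattern held by 17.9% of all tested genes: IFIT2, IFIT3, OAS2, OAS3, OASL, IFIH1, STAT2, IRF9, IFI44L, XAF1, CMPK2, SAMD9L, TRIM22 and PARP9. IFITM1, IFITM2, IFITM3 and BST2 were higher at each time (14.8% of all tested genes). IFIT1 and USP18 were lower at 6 h alone, HERC6 and IRF1 at 12 and 24 h, and MX2 at 24 h alone, while ISG15, HERC5 and IFI35 were higher at 24 h alone. The other 11 members were called at no time. Comparisons with 0 h share the normoxic libraries, so the 3 times are not independent of each other.

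All 6 h libraries lay below all normoxic libraries in 20 members (36% of all tested genes) and above them in 4 (33.6%). At 12 h these counts were 21 (37.6%) and 5 (34.8%), and at 24 h 19 (39.4%) and 11 (33.7%). Libraries of a time were not alike. Set against the normoxic mean, the median member stood at -0.87 and -0.89 (log2 CPM) in 6 h replicates 1 and 2 but at -0.24 in replicate 3. At 12 h it stood at -0.38, -0.61 and -0.62, and at 24 h at -0.36 and -0.65. Without 6 h replicate 3 the calls at 6 h were 21 lower (all genes 25.1%) and 3 higher (all genes 23.7%). Without 24 h replicate 2 the median log2 fold change of the members at 24 h was -0.39 (all genes -0.11). Without 24 h replicate 1 it was -0.71 (all genes -0.24).

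**Figure D2:**
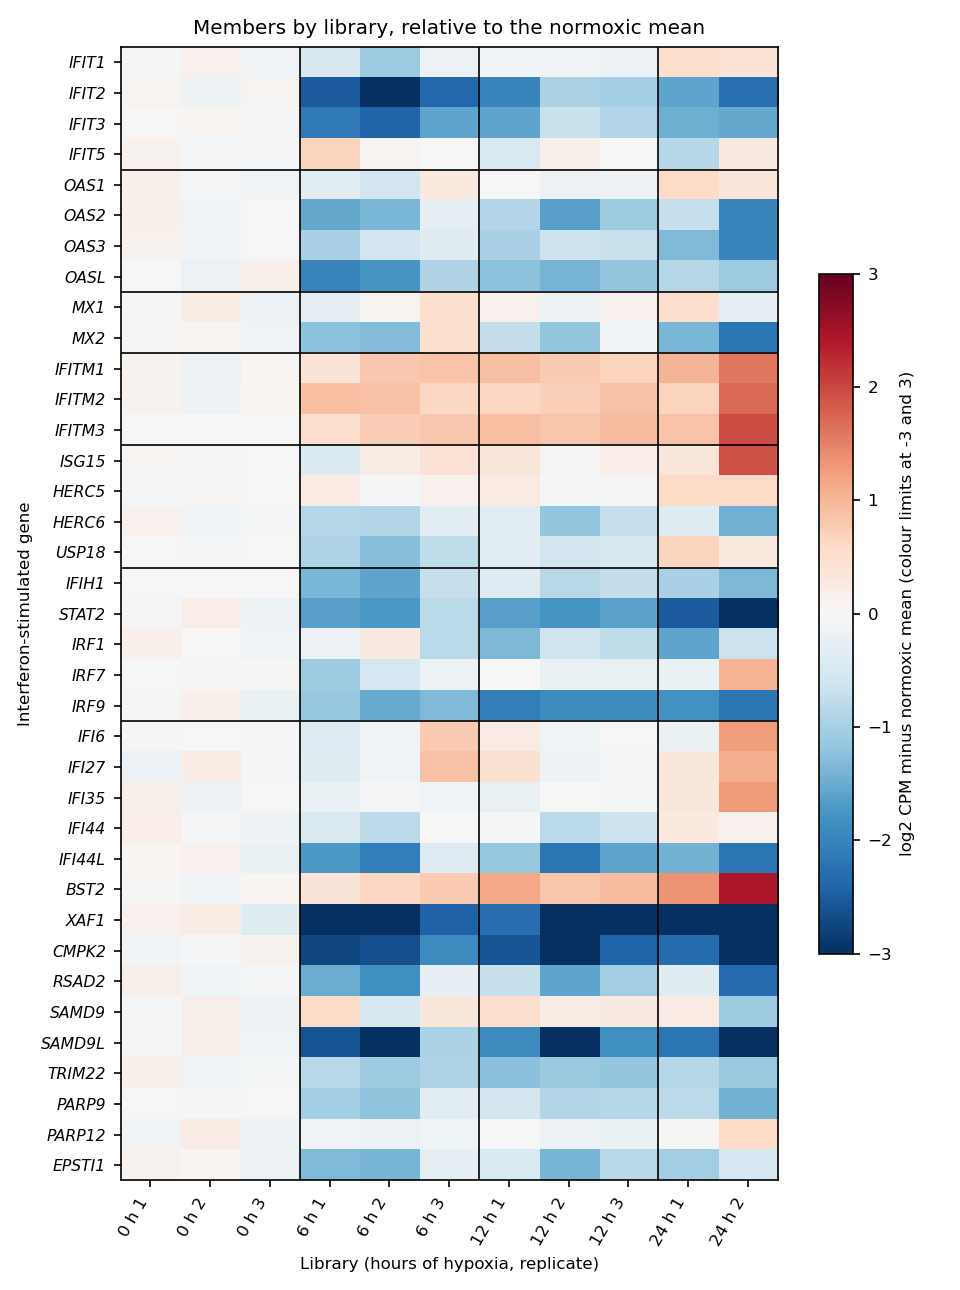
log2 CPM of each of the 37 members in each of the 11 libraries minus its normoxic mean, with colour limits at -3 and 3. Columns are libraries by hours of hypoxia and replicate, and lines separate times and gene families. Blue rows such as XAF1, CMPK2 and SAMD9L stand beside red rows of the IFITM genes and BST2.

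Among the transcription factors, the ISGF3 subunits STAT2 and IRF9 fell at each time. STAT2 (ENSG00000170581, chromosome 12, 56341597 to 56360203) had 61.8, 73.7 and 56.9 CPM in normoxia, 20.5, 19.3 and 36.1 at 6 h, 20.5, 18.6 and 20.9 at 12 h, and 11.2 and 8.01 at 24 h. Every hypoxic library was below every normoxic one, and both 24 h libraries were below all others. Its log2 fold changes were -1.34, -1.68 and -2.73 (SE 0.23, 0.23 and 0.28; edgeR adjusted p = 0.000357, 9.8e-05 and 7.8e-06).

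IRF9 (ENSG00000213928, chromosome 14, 24161234 to 24168043), the DNA-binding subunit of ISGF3, had 3.97, 4.37 and 3.41 CPM in normoxia, 1.74, 1.33 and 1.54 at 6 h, 0.879, 1.01 and 1.01 at 12 h, and 1.07 and 0.817 at 24 h. No hypoxic library reached the normoxic range, and all 12 h libraries were below all 6 h libraries. The log2 fold changes were -1.35, -2.02 and -2.04 (SE 0.21, 0.22 and 0.27; edgeR adjusted p = 0.000187, 1.9e-05 and 3.9e-05). A second gene model on the same strand overlaps 23.9% of the exonic bases of IRF9, and 17.2% of its 75-base windows also occur in another gene, so its counts are less certain.

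IRF1 (ENSG00000125347), an activator of many ISGs, had 27.8, 24.9 and 22.9 CPM in normoxia, 22.1, 30.1 and 14.2 at 6 h, 9.88, 16.6 and 14.8 at 12 h, and 8.39 and 16.0 at 24 h. The 6 h libraries spanned the normoxic range, and all later libraries lay below it. It fell at 12 h by 0.87 and at 24 h by 1.05 on the log2 scale (SE 0.29 and 0.34; edgeR adjusted p = 0.0229 and 0.0159) and stood at -0.19 at 6 h (edgeR adjusted p = 0.594). The 12 h call was lost without normoxic replicate 1 or 2 or 12 h replicate 1. At 24 h the value was -0.71 and no longer called without 24 h replicate 1, and -1.61 without replicate 2. Genes on the other strand, among them IRF1-AS1, overlap 22.9% of its exonic bases.

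IRF7 (ENSG00000185507), which amplifies interferon production, had 18.3, 17.3 and 18.6 CPM in normoxia, 8.61, 12.7 and 16.0 at 6 h, 18.3, 15.5 and 15.5 at 12 h, and 15.6 and 37 at 24 h. All 6 h libraries were below normoxia, and the pair at 24 h lay on opposite sides of it. It was not called, with log2 fold changes of -0.53, -0.14 and 0.54 (edgeR adjusted p = 0.121, 0.693 and 0.144). IFIH1 (ENSG00000115267) encodes MDA5, a sensor of long double-stranded RNA in the cytoplasm. It had 19.0 to 19.5 CPM in normoxia and 6.42 to 14.8 in hypoxia, without overlap, and log2 fold changes of -1.16, -0.63 and -1.15 (edgeR adjusted p = 0.000828, 0.0284 and 0.00197). Its 12 h call was lost without any 1 of the normoxic libraries or 12 h replicate 2 or 3.

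IFIT proteins bind viral or unmodified RNA and hinder its translation, and their genes lie side by side on chromosome 10. IFIT2 (ENSG00000119922, 89283694 to 89309271) had 14.8, 12.6 and 14.9 CPM in normoxia, 2.46, 1.26 and 2.69 at 6 h, 3.52, 7.26 and 6.85 at 12 h, and 4.62 and 2.94 at 24 h. The lowest values were those at 6 h, and every 12 h library was above every 6 h library while still below normoxia. The log2 fold changes from 0 h were -2.70, -1.26 and -1.89 (SE 0.32, 0.30 and 0.36; edgeR adjusted p = 2.7e-05, 0.00402 and 0.000721).

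IFIT3 (ENSG00000119917, 89327307 to 89377473) had 15.9, 16.8 and 15.7 CPM in normoxia, 3.66, 2.98 and 5.38 at 6 h, 5.34, 10.2 and 8.79 at 12 h, and 5.82 and 5.5 at 24 h. It followed the course of IFIT2, although 12 h replicate 1 fell within the 6 h range. Its log2 fold changes were -2.0, -0.99 and -1.51 (SE 0.25, 0.24 and 0.29; edgeR adjusted p = 4.3e-05, 0.00477 and 0.000712). The other family members had smaller values. IFIT1 fell by 0.53 at 6 h (edgeR adjusted p = 0.0423) and stood at -0.13 and 0.46 later without a call. The 6 h call of IFIT1 was lost without any 1 of the normoxic libraries, 6 h replicate 1 or 2, or 12 h replicate 1 or 3. IFIT5 stood at 0.28, -0.071 and -0.20, not called at any time. The log2 ratio of IFIT3 to IFIT1 reads within a library was 0.48 to 0.60 in normoxia and -1.44 to -0.013 in hypoxia.

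OAS enzymes make 2′-5′ oligoadenylates that switch on RNase L, while OASL lacks that activity and acts on RNA sensing. OAS3 (ENSG00000111331), the most abundant of them in reads, had 51.6 to 60 CPM in normoxia, 28.5 to 43.4 at 6 h, 28.3 to 36.4 at 12 h, and 22.2 and 14.0 at 24 h. No hypoxic library overlapped normoxia, and the 24 h pair was below the rest. Log2 fold changes were -0.62, -0.74 and -1.62 (edgeR adjusted p = 0.0174, 0.00696 and 7.6e-05), and the 6 h call was lost without normoxic replicate 1 or 6 h replicate 1.

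OAS2 stood at -0.94, -1.18 and -1.20 (edgeR adjusted p = 0.0388, 0.0154 and 0.0254), all 8 hypoxic libraries below normoxia. Its 6 h call was lost without any 1 of the normoxic libraries, 6 h replicate 1 or 2, or 12 h replicate 3, and its 12 h call without 12 h replicate 2. Its 24 h value was -0.73 and not called without 24 h replicate 2 and -2.06 without replicate 1, and the call was also lost without normoxic replicate 1. OASL stood at -1.48, -1.28 and -0.98 (edgeR adjusted p = 0.000500, 0.00146 and 0.0132), and its 24 h call was lost at -0.89 without 24 h replicate 2. OAS1 was not called, with log2 values of -0.15, -0.099 and 0.49. Of the MX GTPases, which trap viral nucleocapsids, MX1 stood at 0.13, 0.038 and 0.16 without a call. MX2, with 46 to 53 reads in normoxia and 10 and 4 at 24 h, fell by 1.84 at 24 h (SE 0.66; edgeR adjusted p = 0.0276), a call lost without 24 h replicate 2 (-1.49) or normoxic replicate 2.

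The deepest falls were in effectors outside these families. XAF1 (ENSG00000132530, chromosome 17, 6755447 to 6775647), which promotes apoptosis by opposing XIAP, had 128, 118 and 87 reads in normoxia, 5, 3 and 24 at 6 h, 15, 6 and 6 at 12 h, and 3 and 0 at 24 h. Every hypoxic library held fewer reads than any normoxic one, and the 24 h pair was at the limit of detection. Pooled over libraries its level was 9.6-fold lower at 6 h (exact 95% counting interval 6.67 to 14.3), 10.8-fold at 12 h (7.28 to 16.6) and 37.8-fold at 24 h (12.8 to 184). Such an interval covers counting error only. The fitted log2 fold change of XAF1 was -3.34 at 6 h and -4.31 without 6 h replicate 3, and -3.37 at 12 h and -4.10 without 12 h replicate 1. Without 24 h replicate 1 only a library with 0 reads was left at 24 h. XAF1 was called at each time (edgeR adjusted p = 0.000174, 0.000236 and 0.000184), and the antisense gene PRAL overlaps 38.3% of its exonic bases.

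CMPK2 (ENSG00000134326, chromosome 2, 6840570 to 6866635), a mitochondrial nucleotide kinase, had 79, 71 and 86 reads in normoxia, 7, 8 and 25 at 6 h, 8, 2 and 14 at 12 h, and 8 and 3 at 24 h. No hypoxic library held more than 25 reads, and no normoxic one fewer than 71. Log2 fold changes were -2.49, -3.10 and -2.87 (SE 0.39, 0.42 and 0.52; edgeR adjusted p = 0.000209, 9.3e-05 and 0.000490). RSAD2 (viperin), which starts on the other strand beside CMPK2, stood at -1.0, -1.10 and -1.02 with all hypoxic libraries below normoxia and was not called (edgeR adjusted p = 0.0806, 0.0624 and 0.122). Without the filter on reads RSAD2 was called lower at all 3 times. Its 24 h libraries were far apart, at 2.10 and 0.490 CPM against 2.48 to 3.07 in normoxia.

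SAMD9L (ENSG00000177409, chromosome 7, 93130056 to 93148385), an inhibitor of translation and growth, had 5.52, 6.37 and 5.17 CPM in normoxia, 0.888, 0.551 and 2.90 at 6 h, 1.45, 0.474 and 1.53 at 12 h, and 1.2 and 0.272 at 24 h. All hypoxic libraries were below normoxia, with 6 h replicate 3 nearest to it. The log2 fold changes were -1.91, -2.29 and -2.89 (SE 0.54, 0.56 and 0.72; edgeR adjusted p = 0.0105, 0.00482 and 0.00415). Without 6 h replicate 3 the value at 6 h was -2.98, and at 24 h it was -4.42 without replicate 1 and -2.26 without replicate 2.

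Its neighbour SAMD9 stood at 0.20, 0.34 and -0.27 and was not called. The log2 ratio of SAMD9L to SAMD9 reads lay between -1.62 and -1.60 in the normoxic libraries and between -5.36 and -2.91 in the hypoxic ones. A like contrast held between IFI44L and IFI44, adjacent genes on chromosome 1. IFI44L stood at -1.20, -1.60 and -1.76 (edgeR adjusted p = 0.0208, 0.00527 and 0.00681), and IFI44 at -0.38, -0.46 and 0.21 without a call. Their log2 read ratio was -0.47 to -0.15 in normoxia and -2.66 to -0.72 in hypoxia. IFI44L at 6 h was -1.91 without 6 h replicate 3, and its call at 6 h was lost without replicate 1 or 2 of either 0 h or 6 h.

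TRIM22, a ubiquitin ligase that restricts several viruses, had 29.3 to 34.9 CPM in normoxia and 13.3 to 17.7 in hypoxia. The levels of its 8 hypoxic libraries lay close together, and its SE was among the smallest of the members, 0.14, 0.14 and 0.16 for log2 fold changes of -0.96, -1.18 and -0.98 (edgeR adjusted p = 0.000110, 3.5e-05 and 0.000193). PARP9, an ADP-ribosyltransferase that works with DTX3L, stood at -0.80, -0.76 and -1.06 (edgeR adjusted p = 0.0113, 0.0153 and 0.00434), with its 6 h call lost without 6 h replicate 2 and its 12 h call without 12 h replicate 2 or 3. PARP12 and EPSTI1 were not called in the main fit. EPSTI1 stood at -0.90, -0.92 and -0.83 with all hypoxic libraries below normoxia, at 0.842 to 1.02 CPM in normoxia and 0.324 to 0.777 in hypoxia. Its edgeR adjusted p was 0.0535, 0.0522 and 0.131, and of 21 alternatives 9, 12 and 1 called it lower at 6, 12 and 24 h.

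**Figure D3:**
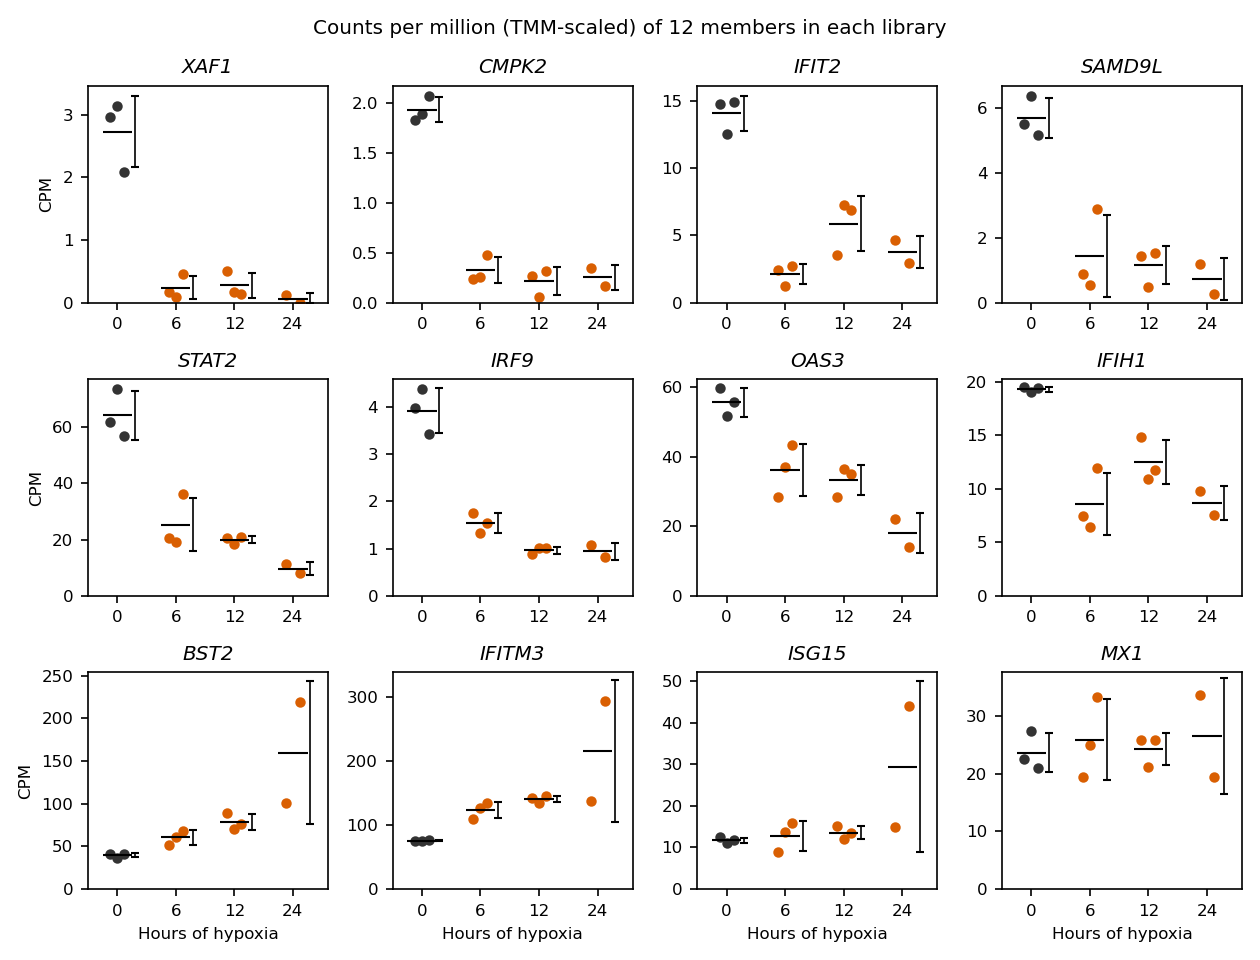
TMM-scaled CPM of 12 members against hours of hypoxia, 1 point per library (black normoxia, orange hypoxia), with the mean as a line and an error bar of 1 SD. XAF1, CMPK2, IFIT2, SAMD9L, STAT2, IRF9, OAS3 and IFIH1 lie below normoxia in all hypoxic libraries, BST2 and IFITM3 above it, ISG15 only in 24 h replicate 2 clearly above the other libraries, and MX1 within the normoxic spread or around it.

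The IFITM genes and BST2 went the other way. IFITM proteins sit in cell membranes and block viral fusion. IFITM3 (ENSG00000142089, chromosome 11, 319676 to 329475) had 75.6, 75.7 and 76.2 CPM in normoxia, 109.5, 126 and 134 at 6 h, 143, 135 and 145 at 12 h, and 137 and 293 at 24 h. Each hypoxic library was above normoxia, and 24 h replicate 2 was far above the others. Log2 fold changes were 0.70, 0.89 and 1.5 (SE 0.21, 0.22 and 0.24; edgeR adjusted p = 0.0153, 0.00436 and 0.000155), the last 0.83 without 24 h replicate 2 and 1.90 without replicate 1.

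IFITM1 (ENSG00000185885, chromosome 11, 310041 to 315272) had 5.18, 4.24 and 5.00 CPM in normoxia, 6.29, 8.4 and 8.64 at 6 h, 8.96, 8.24 and 7.58 at 12 h, and 9.80 and 14.3 at 24 h. Its hypoxic libraries all lay above normoxia, with log2 fold changes of 0.70, 0.78 and 1.32 (edgeR adjusted p = 0.00885, 0.00502 and 0.000184). IFITM2 (ENSG00000185201, chromosome 11, 303655 to 309397) had 16.5, 13.9 and 16.1 CPM in normoxia, 29.0, 28.8 and 24.0 at 6 h, 24.0, 25.5 and 28.6 at 12 h, and 24.5 and 50.5 at 24 h. Hypoxia and normoxia again did not overlap. Its log2 fold changes were 0.81, 0.75 and 1.27 (edgeR adjusted p = 0.00753, 0.0125 and 0.000617), the last 0.63 without 24 h replicate 2, and its 12 h call was lost without normoxic replicate 2. Of the 75-base windows of IFITM1, IFITM2 and IFITM3, 23.1%, 14.3% and 11.2% occur in another gene, mostly in each other, so the split of reads among the 3 is uncertain. Whether each of the 3 rose apart from the others was not tested. Another gene model on the same strand overlaps 21.1% of the exonic bases of IFITM1. Genes on the other strand overlap 16.3% of those of IFITM3.

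BST2 (tetherin; ENSG00000130303, chromosome 19, 17402939 to 17405630) holds budding virions at the cell surface. It had 41.0, 36.9 and 41.5 CPM in normoxia, 51.9, 61.2 and 68.6 at 6 h, 88.6, 70.9 and 75.6 at 12 h, and 100.9 and 219 at 24 h. All libraries of a later time were above all libraries of an earlier one. The log2 fold changes were 0.61, 0.98 and 2.01 (SE 0.23, 0.23 and 0.25; edgeR adjusted p = 0.0406, 0.00377 and 3.0e-05), the last 1.32 without 24 h replicate 2.

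At 6 h the call of BST2 was lost when any of the 3 normoxic libraries, or replicate 2 or 3 of 6 h or 12 h, was left out. Scaling by library size alone moved the median over every gene tested to -0.32, -0.50 and -0.97. Under it IFITM1, IFITM2, IFITM3 and BST2 kept positive values (0.24 to 0.97), but no gene of the 4 was called at all 3 times, and IFITM1 was called at none.

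ISG15 is a ubiquitin-like protein, HERC5 the ligase that attaches it and USP18 the protease that removes it. ISG15 (ENSG00000187608, chromosome 1, 1001138 to 1014540) had 12.4, 11.2 and 11.7 CPM in normoxia, 8.85, 13.7 and 16.0 at 6 h, 15.1, 12.0 and 13.6 at 12 h, and 14.9 and 44 at 24 h. Only 24 h replicate 2 stood clear of the other libraries. ISG15 was called at 24 h (log2 fold change 1.32, SE 0.35; edgeR adjusted p = 0.00546), but without 24 h replicate 2 the value was 0.32 and was not called, and without replicate 1 it was 1.85.

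HERC5 had 18.7 to 19.4 CPM in normoxia and 28.8 and 28.3 at 24 h, a log2 fold change of 0.58 (SE 0.15; edgeR adjusted p = 0.00495) that was -0.33 with library size alone. HERC6 was not called at 6 h (-0.66, edgeR adjusted p = 0.0591) and stood at -0.70 and -0.80 later (edgeR adjusted p = 0.0489 and 0.0450). At 6 h 12 of 21 alternatives called it lower. Both calls of HERC6 were lost without any 1 of the normoxic libraries, and its 24 h value was -0.38 without 24 h replicate 2 and -1.52 without replicate 1. USP18, of whose 75-base windows 18.8% occur in other genes such as USP41, fell by 0.99 at 6 h (SE 0.21; edgeR adjusted p = 0.00157) and stood at -0.46 and 0.51 later, not called. IFI35, a binding partner of NMI, was called at 24 h at 0.88 (SE 0.24; edgeR adjusted p = 0.00734). It had 6.89 and 13.4 CPM there against 4.93 to 6.12 in normoxia, and without 24 h replicate 2 the value was 0.31 and not called. IFI6 and IFI27, small membrane proteins, were not called at any time (0.20, 0.046 and 0.69 for IFI6, and 0.24, 0.091 and 0.75 for IFI27).

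Between successive times few members changed. From 6 to 12 h IFIT2 and IFIT3 rose (2 of 37, all genes 1.88%) and 0 members fell by edgeR, with 2 lower at an unadjusted p under 0.05 (all genes called lower 3.07%). From 12 to 24 h ISG15, HERC5, USP18, IFI35 and BST2 rose (5 of 37, 13.5%), a share near the 15.1% of all genes. OAS3 and STAT2 fell (2 of 37, 5.41%, all genes 13.3%). Each of these calls except that of USP18 was lost in some fit that left out 1 library. For IFIT3 leaving out any 1 of the normoxic libraries was enough. The rise of IFIT2 and IFIT3 was not called without 6 h replicate 1 or 2 or 12 h replicate 2 or 3, and without 24 h replicate 2 the later calls were 2 higher and 0 lower. When the 12 and 24 h groups alone were fitted, edgeR called 0 members and 0% of all genes, so this count is no result about the members. At an unadjusted p under 0.05, 7 members were higher and 2 lower in that fit.

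Direction of change went with transcript length. Exonic length (union of annotated exons) had a median of 1666 bases among members higher at 24 h, 4614 among those not called and 7992 among those lower. By 3 equal length classes of all tested genes (limits 2569 and 5793 bases), 5 of the 7 shortest members were higher at 24 h and 0 lower, 2 of 15 in the middle class were higher and 5 lower, and of the 15 longest 0 were higher and 12 lower. The same gradient was present in the whole table, where median log2 fold changes at 24 h were 0.46, -0.030 and -0.41 from the shortest to the longest class. It was smaller at 6 h (0.17, -0.083 and -0.081) and at 12 h (0.12, -0.084 and -0.10). Among members the medians of the 3 classes were 0.20, -0.66 and -0.94 at 6 h, 0.20, -0.46 and -1.18 at 12 h, and 1.27, -0.20 and -1.20 at 24 h.

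With an offset for length and GC content, an alternative chosen after the data were seen, the calls were 15 lower and 4 higher at 6 and at 12 h. Of all genes 26.2% were lower and 29.7% higher at 6 h, and 24.9% and 29.2% at 12 h. At 24 h the member calls moved to 12 lower (32.4%, all genes 26.5%) and 14 higher (37.8%, all genes 35.5%), where IFIT1, OAS1, MX1, USP18, IRF7, IFI27 and PARP12 joined the higher genes. Of the 14 members lower at all times, OAS2 and OASL left the list, and all 4 higher ones stayed on it. Whether length, RNA quality or regulation moved the 24 h values was not tested.

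**Figure D4:**
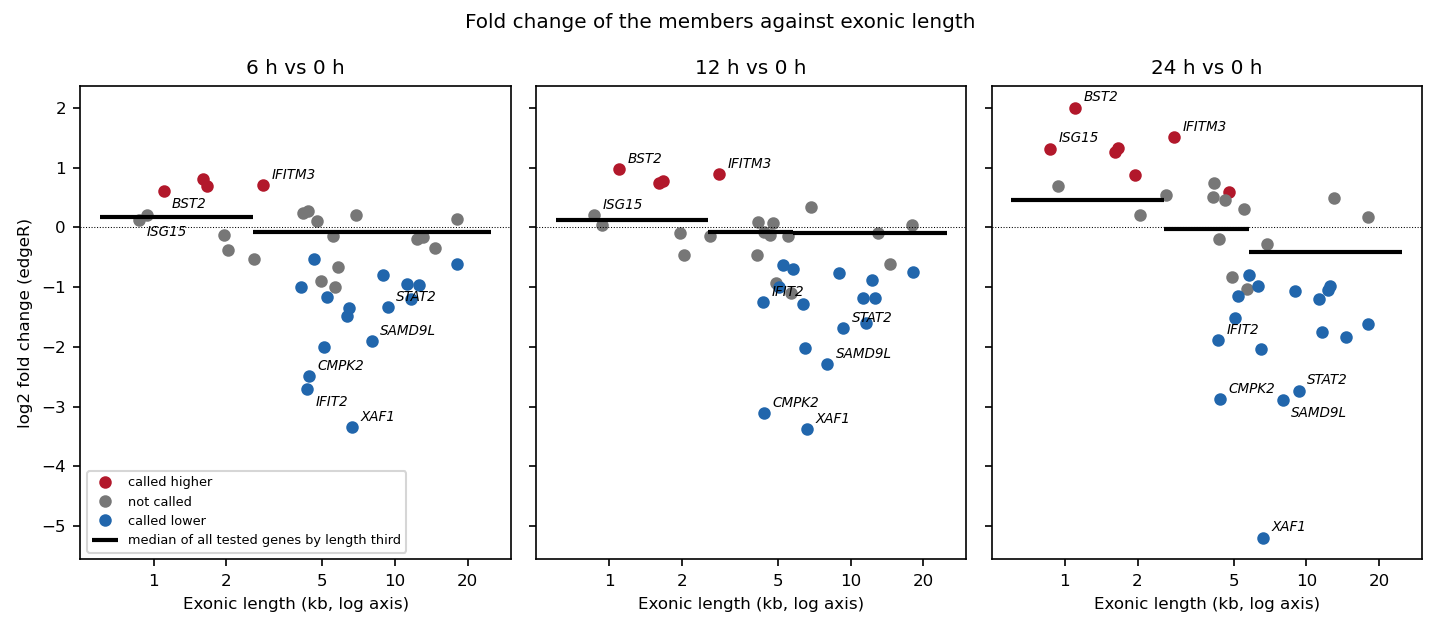
log2 fold change of each member (edgeR) against exonic length in kilobases on a log axis, at 6, 12 and 24 h against 0 h. Red, grey and blue points were called higher, not called and called lower, and black bars are medians of all tested genes by length class, which at 24 h ran from 0.46 to -0.41.

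Per kilobase of exon, BST2 was the most abundant member in normoxia (36.2 CPM per kb), followed by IFITM3 (26.7), ISG15 (13.6), IFI6 (12.7) and IFITM2 (9.68), and MX2 was the least abundant (0.0820). The length used is the union of annotated exons, which can be longer than any 1 transcript, so these ranks depend on the annotation. STAT2 and IRF7 had mean normoxic levels of 64.1 and 18.1 CPM and unions of 9310 and 2612 bases. Per kb of union they were level with each other in normoxia, at 6.89 and 6.92 CPM. After 24 h STAT2 was at 1.03 and IRF7 at 10.1, while BST2 was at 145 and XAF1 at 0.00970.

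Upstream of the members, the ligands other than IFNE were near the limit of detection. Of 12 interferon genes only IFNE and IFNK had enough reads to test. IFNE, an epithelial type I interferon, had 69 to 101 reads in normoxia and fell at 12 and 24 h, by 1.85 and 2.18 on the log2 scale (edgeR adjusted p = 0.000401 and 0.000508). IFNK had 10, 4 and 4 reads in normoxia and 18 and 36 at 24 h, where it rose by 3.16 (SE 0.60; edgeR adjusted p = 0.000632). Of 11 receptor, kinase and STAT genes, 3 were higher and 4 lower at 6 and at 12 h, and 1 was higher and 3 lower at 24 h. These are 27.3% higher and 36.4% lower at 6 h, near the 25.1% and 27.7% of all genes, and 9.09% and 27.3% at 24 h against 29.9% and 31.3%. TYK2 stood at -0.44, -0.68 and -0.83 and JAK2 at -0.81, -0.84 and -0.91, each called at all times. IL10RB, a receptor chain for lambda interferons, stood at -1.17, -1.30 and -1.04 and was called at 6 and 12 h.

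Sensors and adaptors of nucleic acid detection numbered 13, of which 12 were tested. At 6, 12 and 24 h 2, 3 and 3 were higher and 6, 5 and 3 lower. At 6 h 50% were lower against 27.7% of all genes, and at 24 h 25% were higher and 25% lower against 29.9% and 31.3%. DHX58 (LGP2), a partner of MDA5, had 10.7 to 13.1 CPM in normoxia and 1.45 to 2.49 in hypoxia. It stood at -2.74, -2.38 and -2.67 (edgeR adjusted p = 2.3e-06, 7.4e-06 and 7.2e-06). MAVS, the adaptor of MDA5 and RIG-I on mitochondria, stood at -1.61, -1.33 and -2.50, and the DNA sensor CGAS was higher at 1.44, 1.5 and 1.60. Of 9 negative regulators 2, 3 and 3 were higher and 3, 3 and 2 lower. At 6 h 22.2% were higher and 33.3% lower, near the 25.1% and 27.7% of all genes. At 24 h 33.3% were higher and 22.2% lower, against 29.9% and 31.3% of all genes. NLRX1, an inhibitor of MAVS, stood at -1.96, -1.74 and -2.83 and CISH at -1.05, -0.88 and -0.93, both called at each time, and SOCS3, a feedback inhibitor of cytokine signalling, stood at 0.20, 0.88 and 1.88 and was called at 12 and 24 h.

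In a second list of 30 interferon-induced genes, 28 were tested, and 2, 2 and 5 were higher and 10, 12 and 15 lower. At 24 h 17.9% were higher and 53.6% lower, against 29.9% and 31.3% of all genes. The furthest were RTP4 at -3.24, -3.28 and -2.09 (31 to 36 reads in normoxia and 0 to 8 in hypoxia), APOL6 at -2.0, -1.89 and -3.24 and DDX60 at -1.46, -1.45 and -1.97. Of 17 antigen presentation genes 5, 7 and 10 were higher and 2, 2 and 5 lower. These are 29.4% higher at 6 h, near the 25.1% of all genes, and 58.8% higher and 29.4% lower at 24 h, against 29.9% and 31.3%. HLA-E, a nonclassical class I molecule, stood at 0.83, 0.86 and 1.80, whereas NLRC5, the transactivator of class I genes, stood at -1.72, -1.87 and -1.94. These genes were each called at all 3 times.

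Markers of immune cells, which also express ISGs, were at or near 0 or did not move as one. PTPRC (CD45) had 2, 13 and 10 reads in normoxia and 0 to 3 in hypoxia. The 9 leukocyte markers summed to 10.3 to 17.6 CPM in normoxia and 7.00 to 28.1 in hypoxia, most of it CSF1R, and of the 4 that could be tested CD14 was higher and PTPRC and ITGAX were lower at each time. The summed reads of 3 endothelial markers were 1 to 6 per library and those of 4 fibroblast markers 1 to 4. Their part in the ISG results was not tested.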

How the data were processed

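RNA from normoxic and hypoxic RWPE1 cells was sequenced as stranded single-end libraries. The authors trimmed the reads with Trimmomatic, aligned them to GRCh38 with STAR and made gene counts with featureCounts, and the deposited values are these raw counts per Ensembl gene. The strand setting and the handling of reads with several matches are not given in the sources used here.

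Gene symbols, positions and exonic lengths came from GENCODE release 44 on GRCh38, which held 60357 of the 60676 identifiers. Genes were kept by filterByExpr (minimum count 10, minimum total 15). All 11 libraries were fitted with edgeR's quasi-likelihood model with TMM factors and a mean per time point, and the biological coefficient of variation was 19.6%. An SE is the absolute log2 fold change over the square root of F. The method was tested on simulated counts.

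The members and the lists of other genes were chosen with earlier results of these data known. Members given with every library value are the 4 called members of largest absolute log2 fold change in each direction at each time, STAT2, IRF1, IRF7, IRF9 and the IFITM genes. Some genes of these lists are not reported here. Other members carry ranges, and each list of other genes is given by its counts and up to 3 genes, those of largest average change among genes called at any time against 0 h. Replicate numbers were not treated as pairs in the main fit, and the labels do not say whether they pair the samples. Deviations of same-numbered libraries from their group means had correlations of -0.16 to 0.21, and others -0.27 to 0.28. Deviations within a group cancel out, so these correlations cannot decide the question.

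Alternatives exchanged the test (limma-voom with and without sample quality weights, DESeq2), scaling, filter, fitted groups and replicate block, and left out each library in turn. An offset for length and GC content was added after the data were seen. Read sharing was the share of 75-base windows of a gene's transcripts found in another gene's. The models were run in R 4.3.3 with DESeq2 1.42.0, limma 3.58.1 and edgeR 4.0.16. Sequences and plots used pandas 2.3.3, matplotlib 3.10.9 and numpy 2.4.6 in Python 3.11.15.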

Additional observations from a re-analysis of the deposited data

Results flagged for a closer look

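Each result here is a member whose change from 0 h differed between 2 successive times, by the edgeR test of the later time against the earlier one. Of all tested genes 1.88% were called higher and 3.07% lower from 6 to 12 h, and 15.1% and 13.3% from 12 to 24 h. From 6 to 12 h IFIT2 differed by 1.45 (SE 0.32, edgeR adjusted p = 0.0249) and IFIT3 by 1.01 (SE 0.25, edgeR adjusted p = 0.0401) on the log2 scale, both higher at 12 h. All 12 h libraries were above all 6 h libraries for IFIT2, and they overlapped for IFIT3.

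From 12 to 24 h the log2 differences above 0 were 1.12 for ISG15 (SE 0.35, edgeR adjusted p = 0.0303), 0.51 for HERC5 (SE 0.15, edgeR adjusted p = 0.0245), 0.97 for USP18 (SE 0.23, edgeR adjusted p = 0.00877), 0.98 for IFI35 (SE 0.24, edgeR adjusted p = 0.0121) and 1.03 for BST2 (SE 0.25, edgeR adjusted p = 0.0108). Below 0 were OAS3 at -0.88 (SE 0.23, edgeR adjusted p = 0.0137) and STAT2 at -1.05 (SE 0.27, edgeR adjusted p = 0.0128). The 12 h and 24 h libraries overlapped for ISG15 and lay apart for the other 6 genes.

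Without 24 h replicate 2 the differences from 12 to 24 h were 0.12 for ISG15, 0.41 for IFI35, 0.35 for BST2, -0.60 for OAS3 and -0.85 for STAT2, and none of these 5 was called, while HERC5 and USP18 were. USP18 was called in every fit that left out 1 library. HERC5 was not called without 12 h replicate 2 or 3. Over all alternatives the edgeR, limma or DESeq2 adjusted p ran from 2.8e-07 to 0.114 for IFIT2, 0.000448 to 0.166 for IFIT3 and 0.000236 to 0.166 for USP18.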

How the results depend on the processing

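Counts of called members kept within 1.5 times their value in most alternatives, and the exceptions follow. Library size alone gave 1, 2 and 2 higher members at 6, 12 and 24 h against 0 h (all genes 13.6%, 10.6% and 11.1%) with 20, 23 and 21 lower (all genes 35.7%, 42.3% and 56.6%), and 0 higher from 6 to 12 h (2 at an unadjusted p under 0.05) and from 12 to 24 h (1). Under it 3 members reversed at 24 h: HERC5 (-0.33), IFI35 (-0.13) and PARP12 (-0.66, called lower). limma-voom with sample quality weights gave 6 lower at 24 h (all genes 12.3%), and 5 higher and 1 lower from 6 to 12 h (all genes 10.6% and 11.9%). From 12 to 24 h it gave 0 higher and 0 lower (all genes 3.42% and 2.05%), with 5 and 1 members at an unadjusted p under 0.05. The offset for length and GC content gave 14 higher at 24 h (all genes 35.5%). From 12 to 24 h it gave 10 higher and 0 lower (all genes 18.9% and 9.97%), with 1 member lower at an unadjusted p under 0.05. From 12 to 24 h DESeq2 gave 11 higher (all genes 18.6%) and no filter gave 5 lower (all genes 8.39%). Fitting only the 12 and 24 h groups gave 0 and 0 (all genes 0% and 0%), with 7 members higher and 2 lower at an unadjusted p under 0.05. From 6 to 12 h no filter gave 1 lower (all genes 1.97%).

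The replicate block gave 1 higher member from 6 to 12 h (all genes 1.02%) and moved no other count by over 1.5 times. Whether the replicate numbers pair the samples is not known. Fits that left out 1 library gave 3 to 4 higher and 12 to 21 lower at 6 h, 3 to 4 and 12 to 19 at 12 h, 6 to 11 and 14 to 18 at 24 h, 0 to 3 and 0 to 1 from 6 to 12 h, and 2 to 11 and 0 to 3 from 12 to 24 h. Members lower at all 3 times numbered 6 (sample quality weights) to 17 (library size alone), and 10 without normoxic replicate 1, and those higher at all 3 times 0 (library size alone) to 4, and 2 without normoxic replicate 2. A library left alone at 24 h is assumed to vary like the other groups. XAF1 and CMPK2 had at most 24 and 25 reads in any hypoxic library, which limits the precision of their fold changes.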
